A study of Mus musculus with 8 samples.

Results

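The genes described here were 39 genes that build and feed the DNA replication machinery and were listed by what their products do, by a rule that uses no measured value. They were 39 of the 11894 genes tested in pre-B cells with the fuller of the 2 sets of gene symbols used below, and each is placed here in 1 of 9 role groups, from the MCM2-7 helicase to the enzymes that supply nucleotides. RNA-seq libraries of sorted bone marrow pre-B cells (sorted as B220+ IgM- cells of the B lineage, a gate that holds pro-B cells and large and small pre-B cells alike) came from mice of 2 genotypes, with 2 libraries of each genotype, and each library was made from a pool of mice. ATAC-seq, which reads open chromatin from where a transposase can cut, came from LSK cells (Lin- Sca1+ cKit+ IL7R-), the bone marrow fraction that holds hematopoietic stem cells and early progenitors, again with 2 libraries of each genotype. Dido1∆E16 mice were Dido1 flE16/∆E16; R26R-EYFP; iCre Vav1, that is, 1 Dido1 allele lacked exon 16 in all cells and the Vav1-driven Cre removed exon 16 from the floxed allele in blood-forming cells, and EYFP marked the cells in which Cre had acted. The littermates called WT were Dido1 flE16/+; R26R-EYFP; iCre Vav1, so they carried the Cre, the reporter and 1 floxed allele too, and all mice were young adult C57BL/6. The comparison asks whether the genes of DNA replication were transcribed at another level in pre-B cells of Dido1∆E16 mice. It also asks whether their promoters had another accessibility in LSK cells of these mice. Exon 16 encodes the end of the Dido3 protein. The paper reports, from RT-qPCR, that RNA for this protein fell at a later stage than LSK, in prepro-B cells. It also reports that the DNA of the exon was already almost wholly lost in sorted LSK cells. Whether the protein was already reduced in the LSK cells was not tested here.

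DNA replication runs in steps, and the role groups follow them. In G1 phase the origin recognition complex, Cdc6 and Cdt1 load the MCM2-7 helicase onto origins. In S phase Cdc45, the GINS complex and Mcm10 switch the helicase on, primase and the polymerases copy both strands, the sliding clamp Pcna and its loader RFC hold the polymerases on DNA, and Fen1 and Lig1 join the pieces of the lagging strand. Most of these genes are transcribed in dividing cells under the control of E2F factors, which makes their summed level a common readout of how many cells of a sample are cycling. In the bone marrow, pro-B cells and large pre-B cells divide rapidly, whereas small pre-B cells rest and recombine their light chain genes.

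Promoters of some of the genes are shown first, since E2F letters were more frequent in them than in promoters at large. RefSeq gave a promoter window, 250 bases before to 50 bases after a transcript start on GRCm38, for 32 of the 39 genes, in 36 windows in all. Mcm4, Gins1, Gins2, Gins4, Rfc2, Prim2 and Pole had no window in the table. Of 4 versions of the 8-letter E2F site searched on both strands (TTTCCCGC, TTTCGCGC, TTTGCCGC and TTTGGCGC), at least 1 was present in 13 of the 36 windows, or 36.1%. The same letters were present in 4.18% of 9635 windows of genes tested in pre-B cells and in 2.26% of 32851 windows of all genes. The 13 genes were Mcm3, Mcm5, Mcm6, Mcm7, Orc1, Cdc6, Cdt1, Gins3, Rfc3, Pola1, Pold1, Pole2 and Lig1, so all role groups from the helicase to the ligase held some, and TTTGCCGC was found in no member. Of 19 matches in these windows, 12 (63.2%) began no further than 100 bases before the transcript start, a share that was 54.7% of the 781 matches in windows of all genes. A letter match is a description of the window and not a measured binding site. The letters CCAAT, bound by NF-Y, were in 58.3% of the members' windows and in 39% of those of genes tested, and TTTGAA, the core of the CHR element of cell cycle genes, was in 11.1% and 12.2%. The median GC content was 58.8% in the members' windows and 60.7% in those of genes tested. The 5 windows below are those of 1 gene each from the helicase, licensing, clamp loader, polymerase and ligase groups, with the E2F letters in capitals, 5′ to 3′ on the strand of the gene.
Mcm3, chr1:20820263-20820562, minus strand: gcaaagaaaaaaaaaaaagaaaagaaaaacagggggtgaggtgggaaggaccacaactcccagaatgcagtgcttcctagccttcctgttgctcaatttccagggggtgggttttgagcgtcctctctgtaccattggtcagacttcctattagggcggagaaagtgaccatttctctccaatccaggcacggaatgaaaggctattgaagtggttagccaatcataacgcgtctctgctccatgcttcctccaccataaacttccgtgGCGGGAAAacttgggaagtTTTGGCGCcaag
Cdc6, chr11:98907901-98908200, plus strand: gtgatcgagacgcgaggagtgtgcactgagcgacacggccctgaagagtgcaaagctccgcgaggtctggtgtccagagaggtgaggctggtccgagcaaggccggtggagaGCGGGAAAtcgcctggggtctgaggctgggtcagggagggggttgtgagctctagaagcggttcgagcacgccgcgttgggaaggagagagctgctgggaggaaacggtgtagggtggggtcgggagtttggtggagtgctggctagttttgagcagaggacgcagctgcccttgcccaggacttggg
Rfc3, chr5:151651159-151651458, minus strand: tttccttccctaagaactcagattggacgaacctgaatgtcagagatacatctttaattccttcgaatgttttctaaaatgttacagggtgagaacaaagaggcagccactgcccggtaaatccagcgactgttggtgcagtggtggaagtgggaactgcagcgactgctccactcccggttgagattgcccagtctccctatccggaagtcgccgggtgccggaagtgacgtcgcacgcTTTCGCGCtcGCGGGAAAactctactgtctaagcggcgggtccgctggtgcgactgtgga
Pold1, chr7:44548766-44549065, minus strand: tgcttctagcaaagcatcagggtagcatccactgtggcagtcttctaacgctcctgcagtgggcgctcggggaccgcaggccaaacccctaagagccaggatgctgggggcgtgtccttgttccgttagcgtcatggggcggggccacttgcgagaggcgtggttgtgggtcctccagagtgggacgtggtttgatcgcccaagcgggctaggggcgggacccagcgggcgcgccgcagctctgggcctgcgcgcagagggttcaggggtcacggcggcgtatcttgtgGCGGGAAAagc
Lig1, chr7:13278576-13278875, plus strand: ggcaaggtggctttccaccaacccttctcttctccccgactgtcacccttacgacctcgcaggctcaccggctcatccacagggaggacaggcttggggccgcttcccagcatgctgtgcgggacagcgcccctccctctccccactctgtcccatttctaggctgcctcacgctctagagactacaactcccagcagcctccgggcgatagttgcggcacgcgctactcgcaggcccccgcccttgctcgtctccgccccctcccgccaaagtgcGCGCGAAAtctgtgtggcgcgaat
In Mcm3 and Rfc3 2 matches lay close together near the start, and each of the others held 1. The best-scoring LSK promoter peak overlapped the printed window in all 4 libraries for Mcm3, Rfc3, Pold1 and Lig1, and in 3 of 4 for Cdc6. The Lig1 window belongs to 1 of several annotated starts. Both the Lig1 and the Cdc6 window lie past the earliest start of the transcripts summed for the gene, 13277313 and 98907889. Their E2F letters thus fall within the span of a transcript rather than before its start. From the RefSeq start of its window, the Pold1 match began 39 bases after it and the Mcm3 matches 19 and 38 bases after it. The Rfc3 matches began 10 bases before the start and at the start.

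The libraries differed before any comparison of genotypes, and these differences touch every result below. The RNA libraries held 1121 to 1635 megabases of transcript coverage, and the ATAC libraries 10249256 to 52050898 tags and 13208 to 57739 MACS2 peaks. The genotype labels held: the last exon of the long Dido1 transcript (chromosome 2, 180657963 to 180662583) had a mean depth of 15.3 and 10.2 reads per base for WT and fell to 0.192 and 0.039 for Dido1∆E16. Levels are in TPM, which are corrected for transcript length and scaled to the same total in each library. Cd79a and Cd79b, which encode the signalling chains of the B cell receptor, stood at 3393 to 4476 TPM over the 4 libraries. Of the T cell genes, Cd3e and Cd3g were listed at 0 in all 4 libraries. Cd3d ran from 0 TPM for WT replicate 1 to 2.36 TPM for Dido1∆E16 replicate 2. Among 10 T and NK markers, 6 to 8 were listed at 0 per library, and Lck was above 0 throughout, at 12.6 to 22.3 TPM. Over the 4 libraries the T and NK markers summed to 20.8 to 41.3 TPM, the LSK markers to 10.6 to 27.7 TPM, the mature B markers to 4726 to 6220 TPM and the plasma cell markers to 1408 to 1755 TPM. The 20 markers of mitosis summed to 2732 TPM in WT replicate 1 and 324 TPM in WT replicate 2, and to 998 and 1306 TPM in the Dido1∆E16 libraries, so the WT libraries stood at both ends of the range. Neutrophil and monocyte markers summed to 244 and 2216 TPM in WT and to 1071 and 9671 TPM in Dido1∆E16, and erythroid markers to 340, 951, 755 and 8746 TPM in the same order, so Dido1∆E16 replicate 2 held by far the most transcripts of both. In LSK cells the promoters of Kit, Cd34, Flt3 and Meis1 had a peak in all 4 libraries, and that of Ly6a, the gene of the Sca1 marker used in the sort, had none in any. Of the other LSK markers, Hlf and Mecom had a promoter peak in WT replicate 2 alone and Gata2 in WT replicate 1 alone. Nothing in the labels gives a date or batch that separates the libraries of a genotype, and p-values measure only the spread between these pooled libraries. A figure legend of the paper gives the RNA-seq and ATAC-seq samples as male mice of different ages. Its methods state that animals were matched for sex and age. Whether age differed between the libraries of a genotype was not tested.

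No replication gene passed the test between the genotypes, and the WT libraries lay further apart than the genotype means. Per library, the 39 genes summed to 4011 TPM in WT replicate 1, 1647 TPM in WT replicate 2, 2752 TPM in Dido1∆E16 replicate 1 and 2677 TPM in Dido1∆E16 replicate 2. The means were 2829 ± 1672 TPM in WT and 2715 ± 53.4 TPM in Dido1∆E16 (SD, n = 2 libraries), so the genotypes were nearly level while the WT libraries lay 2.44-fold apart and the Dido1∆E16 libraries 1.03-fold apart. In limma on log2(TPM + 1), 35 members passed the filter of a mean of 1 TPM and 0 of them were called at an adjusted p under 0.05 and a change of at least 0.6 on the log2 scale, where 0.0901% of the 9991 genes tested were called. At an unadjusted p under 0.05 there was 1 member, Cdt1, which was lower in Dido1∆E16. Of all genes tested, 10.7% passed that limit, and 2.86% passed it as lower. The lowest adjusted p of a member was 0.45. The median log2 fold change of the members, Dido1∆E16 minus WT, was 0.11 against 0.07 over all genes, and 22 of the 35 lay above 0, where 58.6% of all genes did. A lower level in a bulk sample can come from fewer cells that express a gene or from less RNA per cell, and these cannot be told apart here.

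The symbols deposited with the tables reach only some of the transcripts, and this changed the level of 13 members. When transcripts with no symbol were given the gene that the reference annotation places there, all 39 members passed the filter, 26 kept the same sum, and 4 (Mcm10, Fen1, Tyms and Pole) became testable. Among 11894 genes then tested, 0 members were called against 0.0504% of genes, the lowest adjusted p of a member was 0.340, and the median log2 fold change was 0.12, with a range from -0.44 for Cdt1 to 0.67 for Chaf1b, apart from Cdc45 at -0.50, which was listed at 0 in 2 libraries. The levels given below are these completed sums, and a fold change is from the fit on the authors' symbols unless the completed sum is named.

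**Figure D1:**
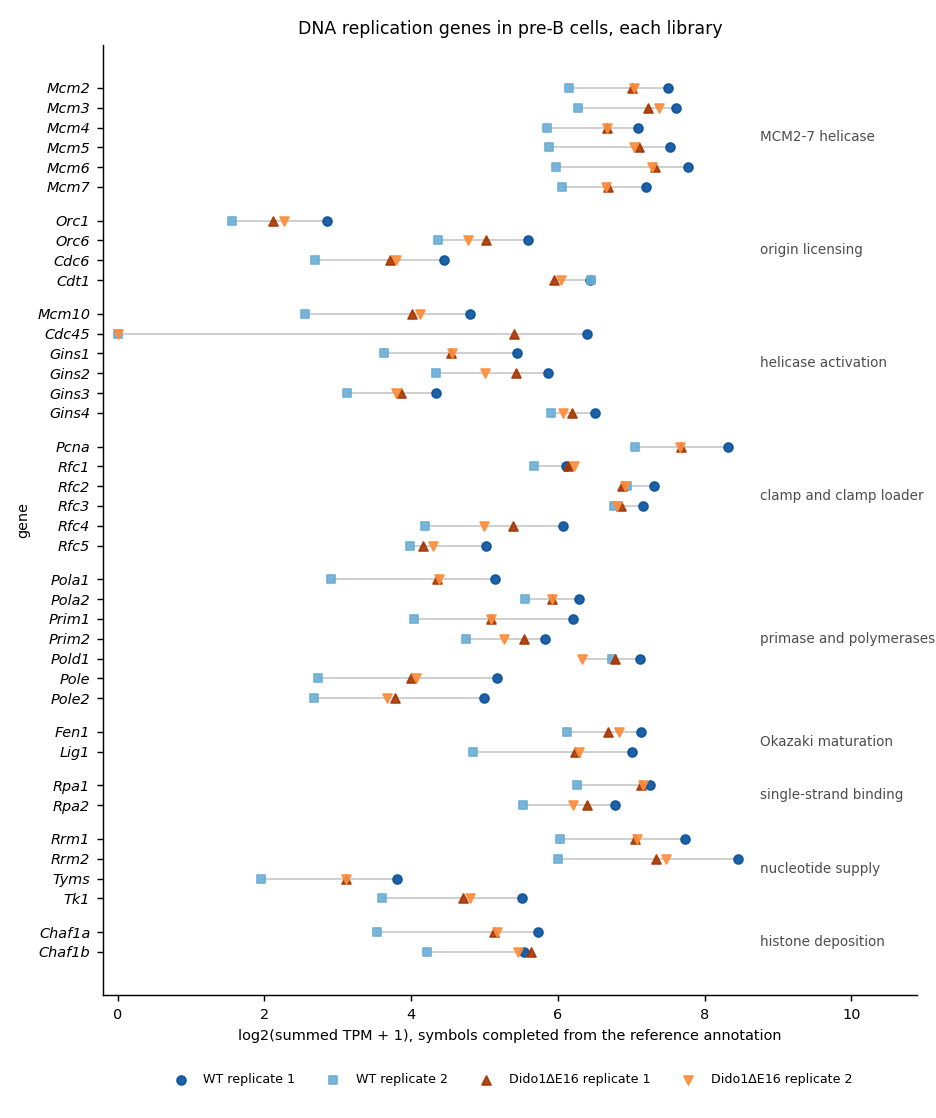
Level of each of the 39 replication genes in the 4 pre-B libraries, as log2(TPM + 1) with completed symbols, ordered by role group. Each point is 1 library. For 33 of the 39 genes both Dido1∆E16 points lie between the WT points, with WT replicate 1 to the right.

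The pattern common to the members was the order of the libraries. For 28 of the 35 members tested, both Dido1∆E16 libraries lay between the WT libraries and WT replicate 1 was the highest, an order held by 14.4% of all genes tested. With completed symbols it was 33 of 39 against 15.2%, and the opposite order, with WT replicate 2 highest, was held by 0 members against 6.15%. WT replicate 1 was above WT replicate 2 in 38 of the 39 genes, by a median of 1.33 log2 units against 0.09 over all genes, and by at least 1 log2 unit in 31 of the 39 against 8.14% of genes. Among the 38 genes detected in both WT libraries, the ratio of WT replicate 1 to replicate 2 had a median of 2.58 and ran from 0.992 for Cdt1 to 6.23 for Pole. The Dido1∆E16 libraries stayed close to each other, with a median absolute difference of 0.09 log2 units in the members against 0.19 over all genes. Among the 38 genes detected in both, ratios ran from 0.879 for Orc1 to 1.38 for Pold1. Cdc45 was the exception, at 41.4 and 0 TPM. Within the span of the WT libraries, the Dido1∆E16 mean lay at a median of 60.5% of the way from the lower to the higher library, from 16.3% for Rfc3 to 88.5% for Rpa1. The 6 genes outside this order were Cdt1, Cdc45, Rfc1, Rfc2, Pold1 and Chaf1b. A difference between 2 libraries of 1 genotype has no replicate of its own, so its size is a description.

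**Figure D2:**
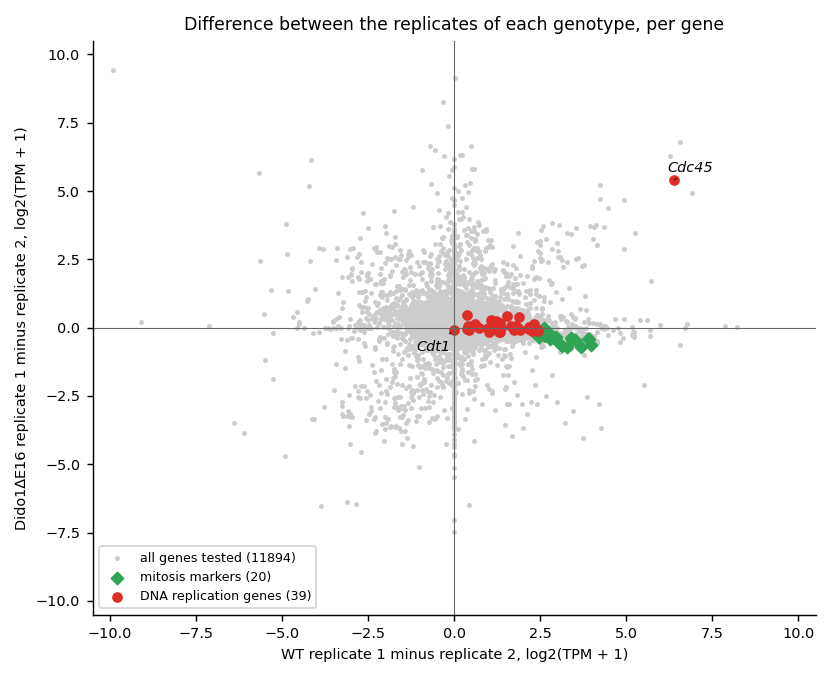
Difference between the replicates of each genotype for every gene tested with completed symbols, in log2(TPM + 1) units, with WT replicate 1 minus replicate 2 on the horizontal axis and Dido1∆E16 replicate 1 minus replicate 2 on the vertical axis; replication genes are red, mitosis markers green and all others grey. The replication genes form a band to the right of 0 on the WT axis, with a median of 1.33, and apart from Cdc45, listed at 0 in 1 library of each genotype, they lie near 0 on the Dido1∆E16 axis.

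Mitosis markers had this order too. All 20 of them had both Dido1∆E16 libraries between the WT libraries with WT replicate 1 highest, and their median WT difference was 2.96 log2 units. Top2a, the topoisomerase of dividing cells, stood at 503 and 45.7 TPM in WT and at 189 and 255 TPM in Dido1∆E16, and Mki67, the proliferation marker, at 228, 25, 86.3 and 139 TPM in the same order. None of the 20 was called. The markers of pro-B cells and large pre-B cells had another order: they summed to 514 and 294 TPM in WT and to 2677 and 1610 TPM in Dido1∆E16, and both Dido1∆E16 libraries were above both WT libraries in 7 of 9, where 27.1% of all genes were. With completed symbols 6 of the 9 were higher at an unadjusted p under 0.05, against 8.59% of all genes, while 0 were called and the lowest adjusted p in limma was 0.192 (5 of 9, against 7.87%, and 0.258 by the authors' symbols). Vpreb1, which encodes part of the surrogate light chain, stood at 108 and 40.9 TPM in WT and at 1222 and 738 TPM in Dido1∆E16. Small pre-B markers, with Rag1 and Rag2 among them, summed to 3345 and 4506 TPM in WT and to 3646 and 3320 TPM in Dido1∆E16. Dido1∆E16 replicate 2, with the most neutrophil and erythroid transcripts, had a summed level of replication genes 1.03-fold below that of Dido1∆E16 replicate 1. The part of the mix of cell stages in the levels of the replication genes was not tested.

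The direction of the genotype difference followed the WT library that was kept. Without WT replicate 1, the median log2 fold change of the 39 members was 0.89 and 36 lay above 0, with 27 at an unadjusted p under 0.05 and higher in Dido1∆E16, against 16.9% of all genes, and 1 (Cdt1) lower, against 4.99%. Without WT replicate 2, the median was -0.59 and 37 lay below 0, with 26 at an unadjusted p under 0.05 and lower, against 5.87% of all genes. In both fits 0 members were called, with lowest adjusted p values of 0.197 and 0.309, and the lone WT library was assumed to vary like the Dido1∆E16 pair. Leaving out a Dido1∆E16 library moved the median little, to 0.06 without replicate 1 and 0.16 without replicate 2.

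**Figure D3:**
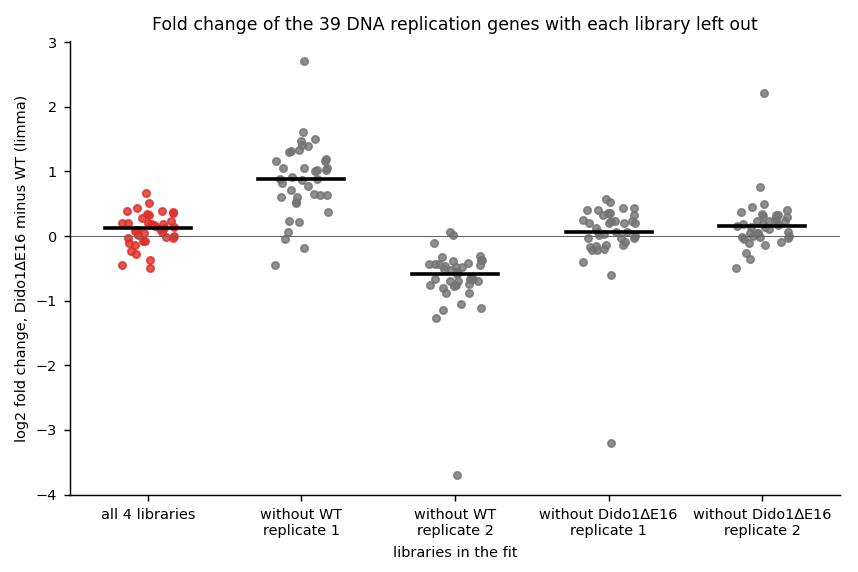
Log2 fold change, Dido1∆E16 minus WT, of the 39 replication genes with completed symbols, when all 4 pre-B libraries are used and when each is left out in turn; each point is 1 gene and the bar is the median. The median is 0.12 with all libraries, 0.89 without WT replicate 1 and -0.59 without WT replicate 2, and the point far from the others in each left-out fit is Cdc45.

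The MCM2-7 helicase, the motor that unwinds DNA at the fork, moved as a set from library to library. Mcm3 (chromosome 1, 20803014 to 20820213, minus strand) stood at 194 and 76.5 TPM in WT and at 149 and 165 TPM in Dido1∆E16. Mcm6 (chromosome 1, 128331575 to 128359705, minus strand) stood at 218 and 62.1 TPM in WT and at 160 and 154 TPM in Dido1∆E16. For all 6 subunits both Dido1∆E16 libraries fell inside the WT span. Their log2 fold changes were all above 0, from 0.04 for Mcm7 to 0.43 for Mcm6, with standard errors of 0.43 to 0.66 and adjusted p values of 0.822 to 0.979. Summed over the ring, the level was 723 ± 472 TPM in WT and 778 ± 2.87 TPM in Dido1∆E16 (SD, n = 2).

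Origin licensing held the one gene whose WT libraries were level. Cdt1 (chromosome 8, 122568015 to 122573130, plus strand), which brings the helicase to origins and is destroyed at the start of S phase, stood at 85.5 and 86.2 TPM in WT and at 60.8 and 65.1 TPM in Dido1∆E16. Both Dido1∆E16 libraries were below both WT libraries, an order held by 15.5% of all genes. Its log2 fold change was -0.36 (SE 0.12, adjusted p = 0.45 in limma) by the authors' symbols and -0.44 (SE 0.13, adjusted p = 0.340) with completed symbols, so it was not called. Cdc6, the loader ATPase, stood at 20.7 and 5.48 TPM in WT and at 12.1 and 12.9 TPM in Dido1∆E16. By the authors' symbols alone Cdc6 was listed at 0 in 3 of the 4 libraries, which gave a log2 fold change of -1.35 where the completed sum gave 0.19, so its direction depended on the transcripts counted. Orc1, the largest subunit of the origin recognition complex, was the least abundant member of the group, at 6.24 and 1.95 TPM in WT and 3.35 and 3.82 TPM in Dido1∆E16. Orc6 stood at 47.1, 19.7, 31.5 and 26.3 TPM in the same order of libraries, and like Orc1 and Cdc6 it lay inside the WT span.

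Genes that activate the helicase followed the helicase itself, with 1 exception. Gins4 (chromosome 8, 23226610 to 23237668, minus strand), a subunit of the GINS complex, stood at 90.3 and 59.0 TPM in WT and at 72.3 and 66.0 TPM in Dido1∆E16. Gins3 stood at 19.3 and 7.73 TPM in WT and at 13.6 and 12.9 TPM in Dido1∆E16. On the log2 scale Gins4 had the narrowest WT span of the 4 GINS genes, 0.61 units. All 4 had both Dido1∆E16 libraries inside their WT span. Mcm10, which helps the active helicase onto single strands, was visible only with completed symbols, at 27.0 and 4.90 TPM in WT and 15.1 and 16.4 TPM in Dido1∆E16. Cdc45, the helicase's partner, was listed at 83.3 and 0 TPM in WT and at 41.4 and 0 TPM in Dido1∆E16. A transcript listed at 0 in 1 library of each genotype while the rest of the complex was present can be a failed estimate, and the log2 fold change of Cdc45, -0.50 with an SE of 3.04, rests on these zeros.

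The sliding clamp and its loader had the smallest median gap between the WT libraries, 0.74 log2 units. Pcna (chromosome 2, 132249286 to 132253180, minus strand), the ring that holds polymerases on DNA, stood at 320 and 132 TPM in WT and at 203 and 201 TPM in Dido1∆E16. Rfc1 (chromosome 5, 65261852 to 65335639, minus strand), the large loader subunit, stood at 68.4 and 50.1 TPM in WT and at 69.2 and 73.9 TPM in Dido1∆E16. It was the only member with both Dido1∆E16 libraries above both WT libraries, against 27.1% of all genes, and its log2 fold change was 0.30 (SE 0.21, adjusted p = 0.699 in limma). Rfc2 (chromosome 5, 134582690 to 134598328, plus strand) stood at 158 and 122 TPM in WT and at 116 and 119 TPM in Dido1∆E16, with a log2 fold change of -0.24 (SE 0.17, adjusted p = 0.699 in limma). Thus 2 subunits of the same loader had non-overlapping genotypes in opposite directions, and neither passed the test. Rfc3, Rfc4 and Rfc5 lay inside the WT span, with Rfc4 going from 66.4 TPM to 17.3 TPM between the WT libraries.

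Primase and polymerase genes had the widest median gap between the WT libraries, 2.17 log2 units. Pold1 (chromosome 7, 44532744 to 44548815, minus strand), the catalytic subunit of the lagging strand polymerase, stood at 138 and 105 TPM in WT and at 109 and 79.1 TPM in Dido1∆E16. Its log2 fold change of -0.37 (SE 0.24, adjusted p = 0.681 in limma) was the lowest of the group. Pola1, the catalytic subunit of the polymerase that extends primers, stood at 34.2 and 6.49 TPM in WT and at 19.5 and 19.9 TPM in Dido1∆E16. Pole, the leading strand polymerase, was seen with completed symbols at 35.1 and 5.64 TPM in WT and at 15 and 15.8 TPM in Dido1∆E16, the largest ratio between WT libraries among the members. Its partner Pole2 stood at 30.9, 5.39, 12.8 and 11.7 TPM in the same order. The primase subunit Prim1 stood at 72.8, 15.4, 33.1 and 33.0 TPM, and Prim2 at 55.8, 26.0, 45.6 and 37.5 TPM. Pola1, Pole, Pole2 and both primase genes thus lay inside the WT span, as did Pola2, whose log2 fold change was 0.14 by the authors' symbols and 0.00 with completed symbols.

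Both genes of Okazaki fragment maturation needed the completed symbols. Fen1 (chromosome 19, 10199132 to 10203943, minus strand), the flap nuclease, was listed at 0 in all 4 libraries by the authors' symbols and stood at 139 and 68.9 TPM in WT and 102 and 113 TPM in Dido1∆E16 once its transcripts were placed. Lig1, the ligase that seals the fragments, stood at 128 and 27.8 TPM in WT and at 74.4 and 77.4 TPM in Dido1∆E16. For Lig1 the authors' symbols left out the transcript expressed in WT replicate 2, and the log2 fold change was 2.76 (SE 2.54) without it and 0.33 (SE 0.76) with it. The single-strand binding subunits Rpa1 and Rpa2 were inside the WT span too, Rpa1 at 152, 75.8, 139 and 142 TPM and Rpa2 at 109, 45.2, 83.0 and 73.1 TPM. Relative to its span, Rpa1 came closest to the upper WT library of the 33 genes inside it.

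Nucleotide supply held the most abundant member in a single library. Rrm2 (chromosome 12, 24708254 to 24714146, plus strand), the S phase subunit of ribonucleotide reductase, stood at 350 and 63.4 TPM in WT and at 161 and 176 TPM in Dido1∆E16. Its partner Rrm1 stood at 211 and 64.5 TPM in WT and at 131 and 134 TPM in Dido1∆E16. Tk1, the thymidine kinase of dividing cells, stood at 44.6 and 11.1 TPM in WT and at 25.2 and 26.9 TPM in Dido1∆E16. The group sum was 4.36-fold apart between the WT libraries, the widest of the role groups, and 0.942-fold between the Dido1∆E16 libraries. Tyms, thymidylate synthase, was listed at 0 by the authors' symbols and lay between 2.88 and 13.0 TPM with completed symbols.

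Histone deposition held the member with the highest fold change that did not rest on missing transcripts. Chaf1b (chromosome 16, 93883901 to 93906114, plus strand), a subunit of the CAF-1 complex that places histones behind the fork, stood at 45.4 and 17.6 TPM in WT and at 48.6 and 42.9 TPM in Dido1∆E16. Its log2 fold change was 0.67 (SE 0.48, adjusted p = 0.675 in limma, completed symbols), and the genotypes overlapped because WT replicate 1 lay between the Dido1∆E16 libraries. Chaf1a, the large subunit, stood at 52.2 and 10.6 TPM in WT and at 33.9 and 34.9 TPM in Dido1∆E16, inside the WT span.

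Other genes of the same pathway, 68 in 7 lists of licensing, origin firing, fork protection, further polymerase and flap, nucleotide, chromatin and E2F genes, held no called gene either. Of these, 62 were tested by the authors' symbols and 0 were called, with 1 higher and 3 lower at an unadjusted p under 0.05, against 7.87% and 2.86% of all genes. With completed symbols all 68 were tested and 0 were called, with 0 higher and 4 lower at an unadjusted p under 0.05, against 8.59% and 3.04%. Of the 68, 47 had both Dido1∆E16 libraries inside the WT span with WT replicate 1 highest. The sums of origin firing genes were 797 and 204 TPM in WT and 435 and 419 TPM in Dido1∆E16, whereas those of the further polymerase, loader and flap genes were 1309, 1104, 1246 and 1147 TPM.
By the authors' symbols the 4 genes at an unadjusted p under 0.05 were Rnaseh2c, Asf1a, Rrm2b and Pole3. Rnaseh2c, a subunit of the nuclease that removes ribonucleotides from DNA, stood at 114 and 102 TPM in WT and at 76.7 and 71.2 TPM in Dido1∆E16 (log2 fold change -0.54, adjusted p = 0.362 in limma). Asf1a, a histone chaperone, stood at 120 and 138 TPM in WT and at 90.4 and 79.5 TPM in Dido1∆E16 (log2 fold change -0.60, adjusted p = 0.368 in limma). Rrm2b, the reductase subunit used outside S phase, stood at 148 and 139 TPM in WT and at 102 and 116 TPM in Dido1∆E16 (log2 fold change -0.40, adjusted p = 0.433 in limma). In each of these the genotypes did not overlap, with Dido1∆E16 below WT, yet none was called. Pole3, a small subunit of the leading strand polymerase, had a log2 fold change of 0.81 by the authors' symbols and of 0.34 with completed symbols.
Recql4, a helicase needed for origin firing, stood at 6.97 and 0.97 TPM in WT and 17.2 and 12.0 TPM in Dido1∆E16 (log2 fold change 1.96, adjusted p = 0.525 in limma). Ccne2, a cyclin of S phase entry, was listed at 25.5, 3.46, 12.1 and 0 TPM. The remaining genes named by the same rule were Orc5 (-0.35), Orc4 (-0.25), Timeless (0.91), Clspn (0.47), Samhd1 (-0.51), Nasp (1.11), Rb1 (-0.33) and Rbl2 (0.29), given as log2 fold changes by the authors' symbols. With completed symbols Timeless became 0.53 and Nasp 0.30, and none of the 8 was called under either set of symbols. Of the 7 further nucleotide genes, 2 were lower at an unadjusted p under 0.05 with completed symbols, against 3.04% of all genes. These were the only 2 of that list below 0, and in both the genotypes did not overlap, against 15.5% of all genes. The paper lists a Samhd1 transcript as lower in Dido1∆E16, from a test per transcript rather than per gene.

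**Figure D4:**
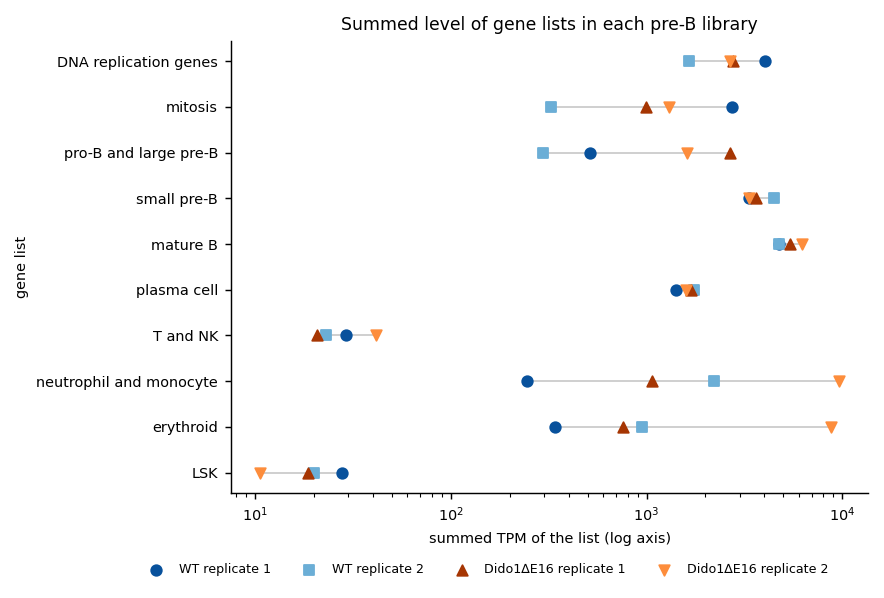
Summed level of the 39 replication genes and of 9 marker lists in each pre-B library, as TPM on a log axis with completed symbols; each point is 1 library and the grey line spans the 4. Replication genes and mitosis markers have WT replicate 1 at the right and WT replicate 2 at the left, and the pro-B and large pre-B markers have both Dido1∆E16 libraries to the right of both WT libraries.

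In LSK cells most replication genes had an open promoter in every library. A promoter peak, one that the authors' annotation placed from 1000 bases before to 200 bases after a start, was called for 34 of the 39 genes in each WT library, and in the Dido1∆E16 libraries for 30 and 32. Of the 9991 genes tested in pre-B cells, 69.3% and 81.5% had one in the WT pair, and 61.4% and 59.4% in the Dido1∆E16 pair, so the members were above the background in each library and both counts moved in the same direction. The mean difference of -3 genes had an exact two-sided permutation p of 0.333, the smallest that 2 against 2 libraries allow. When the same number of best-scoring peaks (13208) was kept in each library, the counts were 29, 27, 30 and 32 and the difference was 3. Of all genes tested, 49.9%, 50.9%, 61.4% and 54.0% had a promoter peak under that setting. The direction thus turned for the members and for all genes alike when the number of peaks was made equal. With HOMER peaks the counts were 35, 34, 33 and 36, against 67.2%, 81.5%, 64.5% and 69.0% of genes tested.

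Across the libraries, 23 members had a promoter peak in all 4, where 49.5% of the genes tested did, and 11 had one in 3 libraries. Prim1 and Tyms had one in 2 libraries and Mcm7 in 1, WT replicate 2. No promoter peak was assigned to Tk1 or Rpa1 in any library. Each peak is assigned to 1 gene, and Mcm7, Orc1, Orc6, Pole and Rpa1 face a neighbour (Ap4m1, Prpf38a, Vps35, Pxmp2 and Smyd4) whose promoter took peaks near their own start. Any peak within 1000 bases of a start was found for 36, 38, 32 and 34 members, against 80.1%, 92.4%, 71.6% and 69.9% of genes tested.

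**Figure D5:**
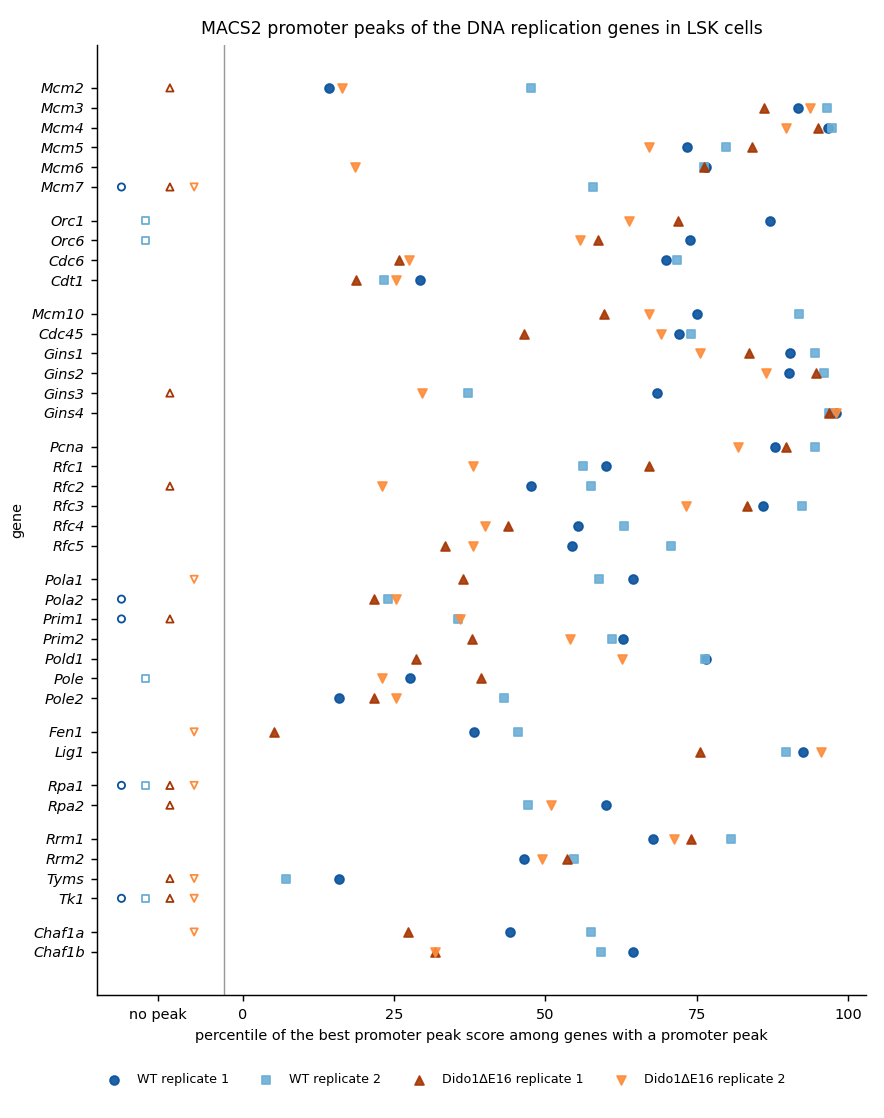
Percentile of the best promoter peak score of each replication gene among all genes with a promoter peak in the same LSK library, where 100 is the highest score; each point is 1 library, and points at the left mark libraries with no promoter peak. Gins4, Mcm4 and Mcm3 are near the top in all 4 libraries and Cdt1 is near the lower end.

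Peak scores are not scaled between libraries, so each gene's best promoter peak was ranked within its library. Over the 23 members with a peak in all 4 libraries, the median percentile was 73.3 and 76.4 in WT and 67.0 and 67.2 in Dido1∆E16, a difference of -7.76 with an exact two-sided permutation p of 0.333, the smallest possible. By the mean over the 4 libraries Gins4 was at the top, at percentiles 98.1, 96.8, 96.9 and 98.0, and Mcm4 stood at 96.7, 97.3, 94.9 and 89.7. Cdt1, the member with level WT libraries in pre-B cells, had the lowest mean percentile of the 23 over the 4 libraries, at 29.3, 23.3, 18.7 and 25.3. The widest genotype gap was in Cdc6, whose best peak was at percentiles 69.9 and 71.8 for WT against 25.9 and 27.5 for Dido1∆E16, with scores of 71, 147, 34 and 26. Both Dido1∆E16 libraries were below both WT libraries in 11 of the 23 members and above in 0, where 38.1% and 4.57% of 4947 genes with a peak in all 4 libraries were. Ranked only among the 6026 genes with a promoter peak in all 4 libraries, the medians were 61.3 and 56.5 in WT and 61.7 and 61.8 in Dido1∆E16, a difference of 2.79, and 6 members were below and 4 above, against 16.2% and 18.4%. The direction of the median thus turned with the set of genes ranked. The 6 members below WT in the second ranking were Mcm4, Cdc6, Mcm10, Gins1, Rfc5 and Chaf1b, all also among the 11 of the first. The share of all genes below WT under both rankings was not counted.

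Members with and without E2F letters had similar values in the pre-B libraries. The median WT difference was 1.33 log2 units in the 13 members with the letters and 1.35 in the 19 with a window that lacked them. Both Dido1∆E16 libraries were inside the WT span in 11 of 13 and 16 of 19. A promoter peak in all 4 LSK libraries was present for 9 of 13 members with the letters and 9 of 19 without.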

How the data were processed

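Pre-B RNA-seq (4 libraries) and LSK ATAC-seq (4 libraries) were compared between Dido1∆E16 and WT. Per the study's methods, the authors aligned RNA reads to mm10 with BWA-MEM (BWA 0.7.15), removed duplicates and ran StringTie on the UCSC gene set without assembling transcripts, which gives TPM, FPKM and coverage per transcript and no read counts. MACS2 and HOMER peaks were called by the authors in each library without pooling and annotated with ChIPseeker. MACS2 peak scores are as deposited and are not scaled between libraries. The log2 tag values deposited per region were scaled by the authors to equal library size with HOMER, and only the total tags in that file's header were used. Columns holding the authors' own comparisons (fold changes and p-values) were not used, except that the gene symbol of each transcript was read from 1 of these tables. The methods give more ATAC-seq samples per genotype than the labels used here.

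TPM of transcripts that share a symbol were summed per gene, log2(TPM + 1) was taken, genes with a mean of at least 1 TPM were kept (9991), and limma 3.58.1 (R 4.3.3) was fitted with a trended variance and genotype as the only term, with Benjamini-Hochberg adjustment over all genes. A call needs an adjusted p under 0.05 and a log2 fold change of at least 0.6 in size. On this scale the change of low genes is understated. For completed symbols, transcripts without a symbol were given the gene on the same strand of GRCm38 that shares at least 50% of their exonic bases (26256 of 63753 transcripts; 35 in members). Where both sources name a gene, 97.5% of names were the same. The number of reads behind a TPM value is not known here, so no interval for counting error is given. The script for the fit was tested on simulated data. Promoter peak counts and percentiles were compared with the exact permutation test over libraries. Promoter sequences are from RefSeq.

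The members and lists were chosen with earlier results of these data known. Levels per library are given for at least 2 members per role group, those with the smallest unadjusted p, and for other lists for the 2 genes with the smallest p. One promoter with E2F letters and a peak in all 4 libraries is printed per role group where there was one. Replicate numbers gave no pairing: the replicate differences of the genotypes correlated at 0.049 over genes. One marker gene of the B lineage, and sums that hold it, are not reported here.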

Additional observations from a re-analysis of the deposited data

How the results depend on the processing

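Under every alternative run, 0 of the replication genes and 0 of the 68 further replication genes were called. Over all genes, the 6 called higher and 3 called lower by the authors' symbols became 0 and 0 with a pseudocount of 0.1, with no filter on low values, with the replicate block, and at an absolute log2 fold change of 1 with an adjusted p of 0.01. They became 11 and 5 when only the transcript with the highest mean was used, 57 and 12 with eBayes without a trend, and 3 and 3 with completed symbols. Leaving out 1 library gave 0 to 260 genes called higher and 0 to 4 called lower, and with completed symbols 0 in each direction; the highest counts came without a Dido1∆E16 library (260 without replicate 1 and 258 without replicate 2). Which setting a count of all genes follows bears on no member, and the cause was not tested. Samples of the same replicate number were not paired in the labels, and the replicate block left 0 members at an unadjusted p under 0.05.

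The median log2 fold change of the members ran from -0.53 to 0.87 when 1 library was left out, and from -0.59 to 0.89 with completed symbols, with both ends set by the WT library left out; it was 0.87 without WT replicate 1 and -0.53 without WT replicate 2. Without WT replicate 2, 20 members changed sign, and without WT replicate 1, 9 did. Members with non-overlapping genotypes were 1 higher and 2 lower, against 26.7% and 14.9% of all genes tested. They became 0 and 5 with median-centring and 2 higher with the transcript of the highest mean alone. With 1 library left out they ranged from 1 to 30 higher and from 2 to 32 lower, and with completed symbols up to 35 and 37. The highest counts came where 1 WT library stood for its genotype, and 1 value is more easily separated from 2 than 2 are. Under these other settings the counts were not made over all genes, so these ranges have no background and no effect is read from them. At an unadjusted p under 0.05, the range was 0 to 21 members higher and 0 to 18 lower, and up to 27 and 26 with completed symbols. The 1 member lower in the full set became 0 with a filter on a mean of 5 TPM and with eBayes without a trend. Marker genes called went from 0 to 1 with the transcript of the highest mean alone, and to 3 and 1 without Dido1∆E16 replicate 1 and replicate 2. Other settings changed the sign of at most 3 members with all libraries in: Mcm7, Gins1 and Rfc4 under median-centring, Cdc6 and Pola2 with completed symbols, Orc1 with a pseudocount of 0.1, and Gins1 with FPKM and with the transcript of the highest mean alone.

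In LSK cells, the difference of -3 members with a promoter peak became 3 with the same number of best-scoring peaks and 0 with HOMER peaks. It was -10 in the better-scoring 50% of peaks and -4 within 1000 bases of a start. The share of all genes tested with a promoter peak also turned with the same number of peaks. In the better-scoring 50% that share was 50.7% and 70.1% for WT and 40.2% and 39.9% for Dido1∆E16. The difference of -7.76 percentile points became 6.05 with the same number of peaks and 2.79 among genes with a promoter peak in all 4 libraries, a ranking chosen after seeing the data, as was the combination of completed symbols with left-out libraries. It was -17.4 in the better-scoring 50% of peaks. HOMER peaks carry no usable score and gave no percentile. With 1 ATAC library left out, the count difference was -4 to -2 and the percentile difference -9.31 to -6.20. A limit of detection was not computed, so with 2 libraries per genotype the 0 called members in pre-B cells do not mean equal levels.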
